A study of Mus musculus with 19 samples.

Results

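The 8 genes examined here in mouse brain are known for roles in germ cells and meiosis: Sycp1, Sycp3, Stag3, Smc1b, Hormad1, Tex11, Mael and Dazl. They were matched by symbol to the Ensembl identifiers of the count tables, and all 8 were found among 41388 identifiers. The genes were chosen with the E13.5 result for Sycp1 already known, so the values of these 8 genes in E13.5 Wiz MommeD30/+ against Wiz+/+ brain are described below without a test. RNA-seq counts covered 16 libraries of FVB mice (FVB/NJ in the study's methods). Whole brains were taken at embryonic day 13.5 (E13.5) from 3 Wiz+/+ and 3 Wiz MommeD30/+ males and from 2 Wiz+/+ and 2 Wiz MommeD30/+ females, and cerebellums came from adult males of 56 days post partum, 3 of each genotype. MommeD30 is a chemically induced null allele of Wiz, which encodes a zinc finger partner of the histone methyltransferases G9a and GLP. All mice of this line, controls included, carry a multicopy GFP transgene under erythroid control sequences.

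Meiosis depends on proteins that most body cells do not need. In meiotic prophase, meiotic cohesin (with STAG3 and SMC1B as germline versions of mitotic subunits) and the axis proteins SYCP3 and HORMAD1 organise each chromosome into loops, and SYCP1 filaments then join paired homologues as the transverse part of the synaptonemal complex. TEX11 acts in recombination, MAEL in transposon silencing by piRNAs, and DAZL binds germ cell mRNAs. Outside the germ line many such genes are held silent by DNA methylation and repressive chromatin, and G9a/GLP is among the known repressors.

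Only 2 of the 8 genes, Sycp1 and Stag3, were transcribed in E13.5 brain under a rule of at least 10 reads in every library of a group and a mean of at least 0.1 RPKM (reads per kilobase of exon per 1000000 counted reads). Sycp1, Stag3 and, in the Wiz+/+ group alone, Dazl met it in cerebellum. Sycp1 (ENSMUSG00000027855) lies on the minus strand of chromosome 3 at 102818499-102936100 of GRCm38, with 3556 exon bases in 34 blocks. Stag3 (ENSMUSG00000036928) lies on the plus strand of chromosome 5 at 138280240-138312393. Mael (ENSMUSG00000040629) lies on the minus strand of chromosome 1 at 166201201-166238747, and Dazl (ENSMUSG00000010592) on the minus strand of chromosome 17 at 50279395-50293636, the chromosome that also carries Wiz.

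The 250 bases before the annotated start of the 4 genes that the results turn on are shown for their CpG dinucleotides and for matches, in capitals, to 2 short motifs searched on both strands. These are GCGGGA, a core found in sites of E2F factors, and CACGTG, the E-box of MYC and MAX family factors. The sequence was read from the RefSeq GRCm38.p6 genome, 5′ to 3′ on the strand of each gene.
Sycp1, chr3:102936101-102936350, minus strand: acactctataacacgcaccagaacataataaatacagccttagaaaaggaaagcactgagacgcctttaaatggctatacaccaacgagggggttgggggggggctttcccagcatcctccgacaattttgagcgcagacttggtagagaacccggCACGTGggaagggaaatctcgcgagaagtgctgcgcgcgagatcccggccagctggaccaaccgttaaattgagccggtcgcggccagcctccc
Stag3, chr5:138279990-138280239, plus strand: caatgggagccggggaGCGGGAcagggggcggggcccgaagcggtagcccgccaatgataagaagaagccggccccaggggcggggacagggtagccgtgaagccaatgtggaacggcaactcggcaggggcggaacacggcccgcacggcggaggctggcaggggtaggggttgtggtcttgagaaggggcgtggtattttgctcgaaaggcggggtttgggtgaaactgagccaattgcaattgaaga
Mael, chr1:166238748-166238997, minus strand: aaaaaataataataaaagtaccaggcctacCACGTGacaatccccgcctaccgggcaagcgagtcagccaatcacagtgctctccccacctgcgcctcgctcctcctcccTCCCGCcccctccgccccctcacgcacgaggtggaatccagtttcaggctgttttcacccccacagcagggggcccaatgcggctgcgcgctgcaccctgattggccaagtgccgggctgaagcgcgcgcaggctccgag
Dazl, chr17:50293637-50293886, minus strand: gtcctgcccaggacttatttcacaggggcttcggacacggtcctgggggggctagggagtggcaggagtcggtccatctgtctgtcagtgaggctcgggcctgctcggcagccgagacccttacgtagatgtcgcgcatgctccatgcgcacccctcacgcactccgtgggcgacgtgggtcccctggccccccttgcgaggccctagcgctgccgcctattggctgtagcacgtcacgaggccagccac
The Sycp1 window held 1 E-box, whose first base was at position -94 from the start, and no GCGGGA. The Stag3 window held 1 GCGGGA at -234, next to the first exon of Gpc2, which starts in the opposite direction and takes 16 bases of the window. Mael had an E-box at -220 and GCGGGA (as its complement) at -140, and Dazl had neither. Over the 8 genes, 6 windows held GCGGGA and 4 held an E-box, while the shares over the 21384 windows of protein-coding genes were 20.3% and 6.6%. No matches of the 2 motifs overlapped. The windows of the 8 genes held 10 to 24 CpGs, against a median of 8 over all windows. Both motifs contain a CpG, and no share was taken over windows of like CpG content. The motif counts therefore do not show an excess. Such a match describes letters and does not show that a factor binds.

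**Figure D1:**
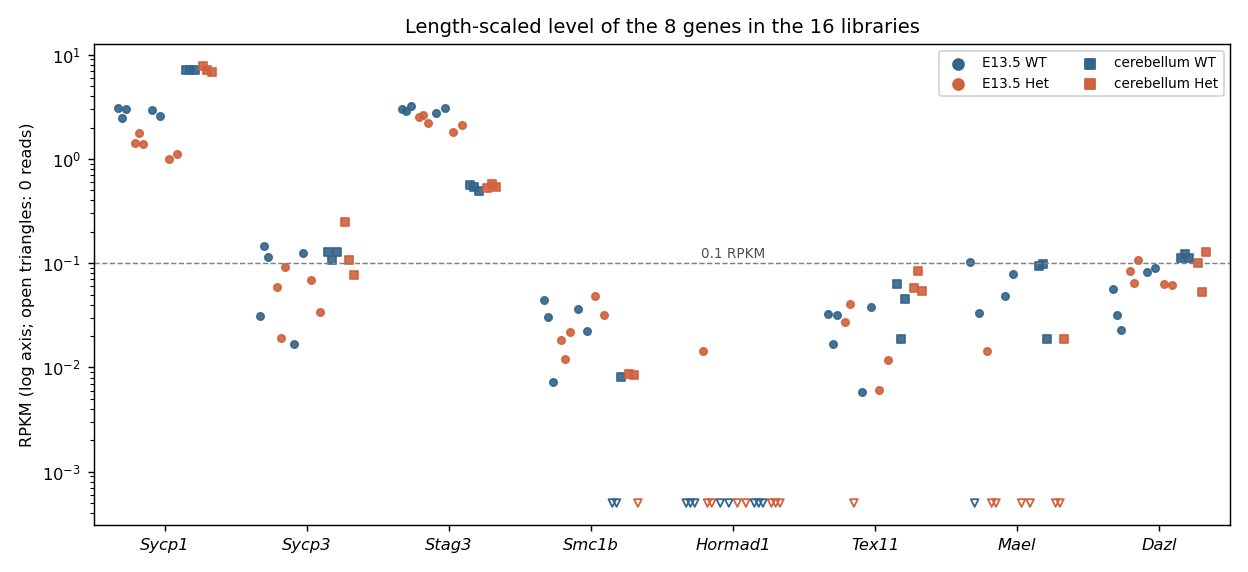
Length-scaled level (RPKM, log axis) of the 8 genes in each of the 16 libraries, with WT for Wiz+/+ and Het for Wiz MommeD30/+, circles for E13.5 brain (male left of female) and squares for cerebellum. Sycp1 and Stag3 are at 0.495 RPKM or more in every library. Most points of the other 6 genes lie below the dashed line at 0.1 RPKM. The highest of them is Sycp3 at 0.251 RPKM in the first Het cerebellum.

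Per exon length, Stag3 averaged 2.63 RPKM and Sycp1 2.08 RPKM over the 10 E13.5 brains, above 74.1% and 72.5% of 40254 genes. Sycp3 (0.0708 RPKM), Dazl (0.0664), Mael (0.0278), Smc1b (0.0273), Tex11 (0.0211) and Hormad1 (0.0014) followed. In male Wiz+/+ brains the levels of Stag3 (3.05 ± 0.168 RPKM, SD, n = 3) and Sycp1 (2.85 ± 0.33) overlapped, at 2.91 to 3.24 and 2.47 to 3.08 RPKM. In cerebellum the order was different, with Sycp1 at 7.22 RPKM over 6 libraries and Stag3 at 0.539, and the remaining genes at or below 0.133. The mitotic relatives of STAG3 were far higher: Stag1 and Stag2 had 11.2 ± 0.384 and 19.4 ± 0.929 RPKM in male Wiz+/+ brain.

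The mutated gene was lower in every library labelled Wiz MommeD30/+. Wiz had 182, 200.1 and 188 CPM (reads per 1000000 counted reads) in male Wiz+/+ brains and 118, 126 and 123 CPM in male Wiz MommeD30/+ brains. In females it had 186 and 195 against 130 and 127 CPM. In cerebellum the ranges were 95.4 to 95.5 and 66.6 to 67.7 CPM. Its fold change was 0.644 in males (edgeR quasi-likelihood test, adjusted p = 1.3e-05), 0.672 in females (adjusted p = 0.014) and 0.706 in cerebellum (adjusted p = 9.9e-08, but above the fold limit of 0.7 used below). Total counts ran from 16386029 to 50459755, lowest in the second male Wiz+/+ brain. The summed level of 7 embryonic neural markers was 4108 to 4331 CPM in E13.5 brain and 748 to 790 CPM in cerebellum, and that of 6 cerebellar markers was 164 to 183 CPM and 6592 to 7128 CPM.

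SYCP1 builds the transverse filaments that hold homologues together. In E13.5 males, Sycp1 had 10.96, 8.79 and 10.6 CPM in the 3 Wiz+/+ brains and 5.11, 6.25 and 4.91 CPM in the 3 Wiz MommeD30/+ brains. In females it had 10.6 and 9.18 CPM in Wiz+/+ and 3.57 and 3.94 CPM in Wiz MommeD30/+ brains. Every Wiz MommeD30/+ brain was therefore below every Wiz+/+ brain in both sexes. The share of all genes that separated the genotypes in this way was not counted, for Sycp1 or for the genes below. The fold change was 0.526 in males and 0.38 in females, values from the contrast on which the gene was chosen. Among 16848 genes tested in males 0.184% passed the call rule used throughout (a fold change below 0.7 or above 1.3 with an adjusted p no higher than 0.05), and in females 0.111% of 17152 did.

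In adult cerebellum, which the choice of Sycp1 did not use, the gene stood at a higher level and genotype made no detectable difference. The Wiz+/+ cerebellums had 25.4, 25.6 and 25.6 CPM and the Wiz MommeD30/+ cerebellums had 27.8, 25.3 and 24.4 CPM. The groups overlapped. The log2 fold change was 0.02 (SE 0.0526, adjusted p = 0.893, edgeR), with a 95% interval of 0.937 to 1.09 in fold. A difference in response between the tissues was not tested, since it would rest on the contrast that chose the gene. None of the 3 genes that passed the filter on low counts in cerebellum (Sycp1, Stag3 and Dazl) was called there, where 0.832% of all 15979 tested genes were. At an unadjusted p under 0.05 the number was also 0, and DESeq2 called 0.

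**Figure D2:**
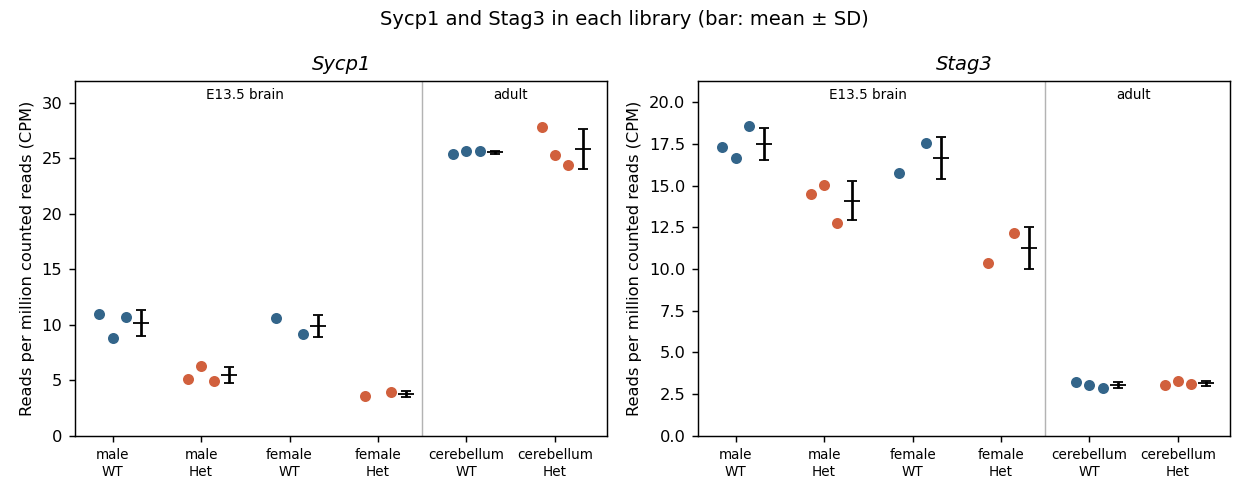
CPM of Sycp1 and Stag3 in each library by group (WT, Wiz+/+; Het, Wiz MommeD30/+), with the mean ± SD of 2 or 3 libraries beside the points. In E13.5 brain the Het points lie below all WT points of the same sex for both genes, and in cerebellum they overlap. The share of all genes that lie apart in this way was not counted.

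STAG3 is the germline version of the STAG subunit of cohesin. In males Stag3 had 17.3, 16.7 and 18.6 CPM in Wiz+/+ and 14.5, 15.02 and 12.8 CPM in Wiz MommeD30/+ brains. In females it had 15.7 and 17.5 against 10.4 and 12.2 CPM. As for Sycp1, the genotypes did not overlap in either sex, but the fold changes were nearer 1, at 0.801 in males and 0.676 in females. Such separation was not counted over all genes. In Wiz MommeD30/+ brains Stag3 had a higher RPKM than Sycp1 in every library (1.81 to 2.62 against 1.00 to 1.76).

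In cerebellum Stag3 had 3.21, 3.07 and 2.84 CPM in Wiz+/+ and 3.03, 3.29 and 3.11 CPM in Wiz MommeD30/+ mice, and the groups overlapped. The log2 fold change was 0.05 (SE 0.123, adjusted p = 0.864, edgeR), with a 95% interval of 0.866 to 1.24 in fold. The starts of Stag3 and Gpc2, a glypican gene, have 234 bases between them. Gpc2 was not called in any comparison of genotypes, with log2 fold changes of -0.01 in both sexes at E13.5 and -0.21 in cerebellum. Nr1h5, which has 3557 bases between its 3′ end and the start of Sycp1, had log2 fold changes of 0.12 in males and 0.23 in females and was not called. Both neighbours were picked by position after values had been seen.

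None of the mitotic cohesin genes was called between genotypes. Smc1a, Stag1, Stag2, Smc3 and Rad21 were all tested in each comparison of genotypes and 0 of 5 were called in males, females or cerebellum by edgeR or by DESeq2, with 0 at an unadjusted p under 0.05 in males and in females. Over all genes tested 0.184%, 0.111% and 0.832% were called by edgeR in these 3 comparisons, so a count of 0 among 5 genes says little about them. Their log2 fold changes ran from -0.02 (Rad21) to 0.04 (Stag1) in males and from 0.05 (Rad21) to 0.10 (Stag2) in females. One of them, Smc3, had an unadjusted p under 0.05 in cerebellum, where its log2 fold change was 0.14 (SE 0.0337, adjusted p = 0.0202), inside the fold limits. Unlike the E13.5 values of Sycp1 and Stag3, these are tests on genes that were not chosen by their response.

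The levels of the germline genes differed with tissue and age, which differ together in these samples and cannot be told apart. Among male Wiz+/+ libraries, Sycp1 was lower in E13.5 brain than in cerebellum, by a log2 difference of -1.51 (SE 0.0742, adjusted p = 3.02e-11, edgeR). Stag3 was higher in E13.5 brain, by 2.32 (SE 0.091, adjusted p = 1.84e-12). Both calls came from a comparison that called 69.5% of 16840 genes. Dazl passed the filter on low counts through the cerebellums alone, so its levels, 0.142 ± 0.0677 CPM in E13.5 brain and 0.441 ± 0.0277 CPM in cerebellum (SD, n = 3 each), are given without a test. In bulk tissue, fewer cells that transcribe a gene and less RNA per cell cannot be told apart.

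Sex made no called difference to the members. Over the 10 E13.5 brains, with genotype in the model, Sycp1 was -0.27 (female minus male, log2, SE 0.109, adjusted p = 0.126, edgeR), Stag3 was -0.20 (SE 0.0728, adjusted p = 0.0875) and Dazl was 0.23 (SE 0.326, adjusted p = 0.697). In this comparison 0 of 3 members were called, 2 of 3 had an unadjusted p under 0.05, DESeq2 called 0, and 1.46% of all genes tested were called. The summed level of 6 blood markers was 685 to 1095 CPM in male and 1180 to 1329 CPM in female brains. That of 4 meningeal markers was 325 to 369 and 419 to 479 CPM, and the part of these in the sex comparison was not tested. The Sycp1 ranges of the sexes overlapped in Wiz+/+ brains (8.79 to 10.96 CPM in males, 9.18 to 10.6 in females) and did not overlap in Wiz MommeD30/+ brains (4.91 to 6.25 and 3.57 to 3.94). Whether the genotype response of the members differed between the sexes was not tested, since it is made of the values that chose them.

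Mael, a piRNA pathway gene, was read rarely and nearly always in Wiz+/+ libraries. The 8 Wiz+/+ libraries held 32 Mael reads and the 8 Wiz MommeD30/+ libraries held 2. In cerebellum the reads were 5, 5 and 1 in Wiz+/+ and 0, 0 and 1 in Wiz MommeD30/+ mice. In E13.5 males they were 9, 0 and 2 against 1, 0 and 0, and in females 4 and 6 against 0 and 0. The groups shared the count of 0 in males and of 1 in cerebellum, and were apart in females, a pattern that was not counted over all genes.

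The cerebellar difference for Mael rests on 12 reads. The ratio of Wiz+/+ to Wiz MommeD30/+ CPM, pooled over libraries, was 10.7 there, with an exact 95% interval of 1.56 to 462 that covers counting error only. An exact two-sided permutation test of CPM over the 3 and 3 samples gave p = 0.1, the smallest it can give. That value rests on the third library of each genotype, which held 1 read each and differed by depth alone (0.0326 against 0.0324 CPM). It does not show that the read counts were apart. Mael did not pass the filter on low counts in any fit. It was below 0.1 RPKM on average in each group, and PCR copies cannot be told from separate molecules in these reads.

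DAZL binds and regulates germ cell mRNAs. In males Dazl had 11, 2 and 3 reads in Wiz+/+ and 13, 10 and 14 in Wiz MommeD30/+ brains, or 0.218, 0.122 and 0.0873 CPM against 0.322, 0.244 and 0.41 CPM. In females it had 15 and 15 reads against 11 and 11 (0.316 and 0.341 CPM against 0.241 and 0.237 CPM). The genotypes were apart in opposite directions in the 2 sexes, a pattern that was not counted over all genes. The 3 Wiz+/+ cerebellums had 13, 14 and 13 reads and the Wiz MommeD30/+ cerebellums had 11, 6 and 15, which overlap. The cerebellar log2 fold change was -0.28 (SE 0.341, adjusted p = 0.702, edgeR), with an interval of 0.499 to 1.35 in fold. Differences inside that interval were not excluded. Without the second Wiz MommeD30/+ cerebellum the value was -0.0006 and without the third it was -0.57 (adjusted p of 1 and 0.47).

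The remaining 4 members were at or near the detection limit. Sycp3, an axis component, had 1 to 7 reads per E13.5 brain and 3 to 9 per cerebellum, and 660 of its 1264 exon bases coincide with exons of Chpt1 on the other strand, so its few reads cannot be assigned with certainty. Smc1b, the germline SMC1 subunit, had 1 to 9 reads per E13.5 brain and at most 1 per cerebellum. Tex11, an X-linked recombination gene, had 0 to 6 reads in E13.5 brain and 2 to 9 in cerebellum. Hormad1, which marks unsynapsed axes, had 1 read in all 16 libraries, in a male Wiz MommeD30/+ brain. Its 0 reads in the Wiz+/+ cerebellums allow a level of up to 0.033 CPM (3 counts over the group). For none of the 4 did the genotypes separate in any tissue.

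**Figure D3:**
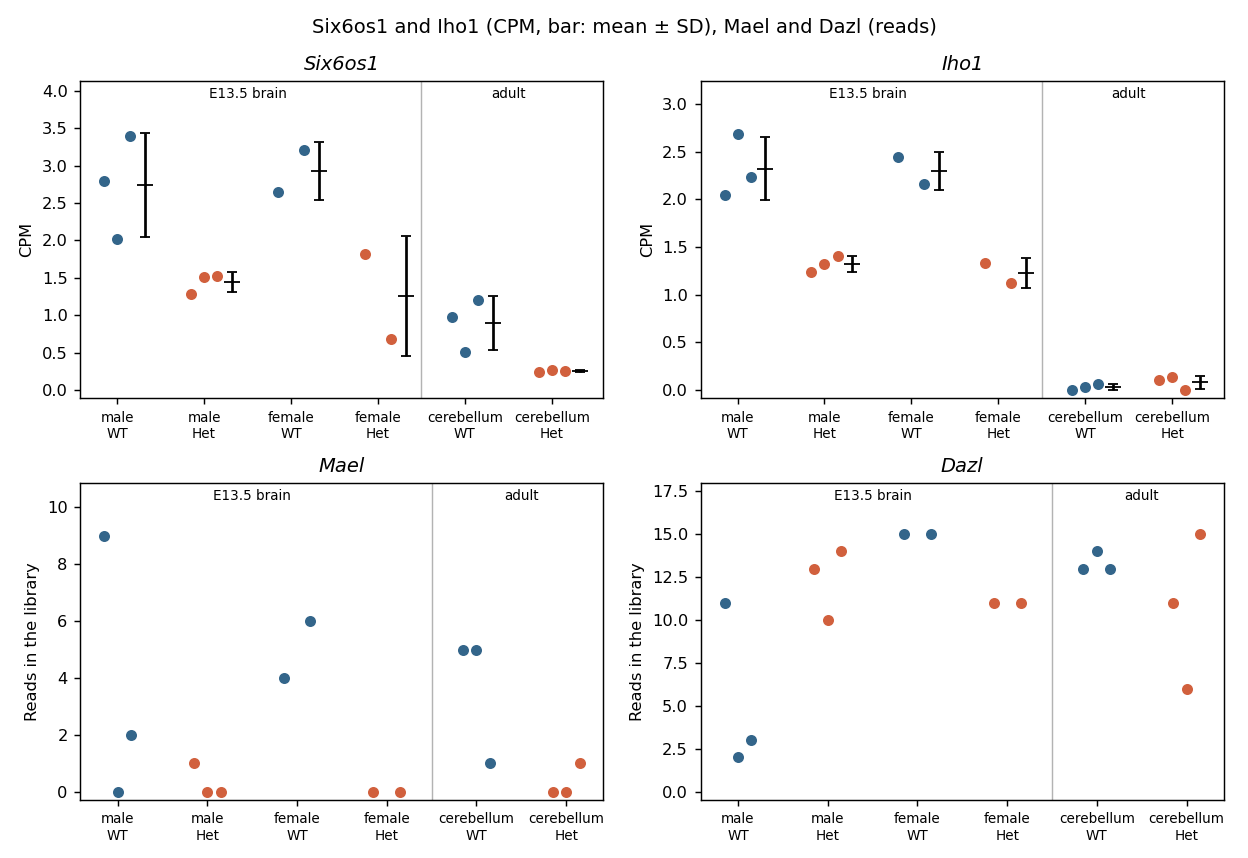
Six6os1 and Iho1 (upper panels, CPM with mean ± SD) and Mael and Dazl (lower panels, reads per library) by group, with WT for Wiz+/+ and Het for Wiz MommeD30/+. Six6os1 is lower in every Het library of each set, Iho1 in every E13.5 Het brain, Mael has 2 reads in all Het libraries together, and Dazl is read in every library. The share of all genes that separate the genotypes in this way was not counted.

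To place the 8 genes among others of the germ line, a list of 70 further meiotic and germ cell genes was used, of which 69 were found. With the rule above applied to all libraries of a tissue together, 30 of the 69 (43.5%) were transcribed in E13.5 brain and 28 (40.6%) in cerebellum. The share of all genes that met this rule was not counted, so these numbers do not show an excess. By level alone, 58.2% of 40254 genes in cerebellum lay below Dazl, at 0.105 RPKM. The highest genes of the list were the same 5 in both tissues. Tdrkh (a tudor protein of the piRNA pathway) had 12.8 ± 0.448 RPKM over the 10 E13.5 brains, Psmc3ip (a cofactor of strand exchange) 11.4 ± 0.565, Tdrd7 (a germ granule protein) 6.8 ± 0.258, Ythdc2 (an RNA helicase of meiotic entry) 5.94 ± 0.318 and Ddx25 (a testis RNA helicase) 4.92 ± 0.365. In cerebellum they ran from 4.73 ± 0.232 RPKM (Ddx25) to 9.03 ± 0.245 RPKM (Tdrd7). None of these 5 was called between genotypes in males, females or cerebellum. By function, 10 of 17 recombination genes, 9 of 20 piRNA and germ granule genes and 4 of 10 synaptonemal complex and axis genes were transcribed in E13.5 brain.

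Between genotypes few genes of this list moved. In males 0 of 42 tested were called by edgeR (4 at an unadjusted p under 0.05, 1 called by DESeq2), and in females 0 of 43 (6 at an unadjusted p under 0.05, 0 called by DESeq2). Over all genes tested 0.184% and 0.111% were called, and 8.45% and 6.4% had an unadjusted p under 0.05. The median log2 fold change of the list was -0.04 in males and -0.09 in females, while that of all tested genes was 0.0001 and 0.0002. In cerebellum 1 of 33 was called, where 0.832% of all genes were, with a list median of 0.06 beside -0.0031 over all genes. That gene, Six6os1, passed the filter on low counts through the Wiz+/+ group alone. With the 10 E13.5 brains in 1 fit and sex as a covariate, 2 of 45 were called, both lower, in a comparison that called 0.346% of 17620 genes. No gene of the list, of 45 tested, was called by edgeR for a difference in genotype response between the sexes, with 0 at an unadjusted p under 0.05 and 0 called by DESeq2. That term called 0% of all 17620 genes, with 701 at an unadjusted p under 0.05 and 1 called by DESeq2. The 2 genes called over both sexes belong to the synaptonemal complex and axis group, where all 5 tested genes had log2 fold changes below 0 in that fit, with a median of -0.29. The group was looked at because it held the called genes, and 50.3% of all genes tested in that fit were below 0. In males 5 of its 5 tested genes were below 0, in females 4 of 5 and in cerebellum 2 of 4. Among piRNA and germ granule genes 10 of 16 were below 0 in the fit of both sexes.

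Six6os1 (4930447C04Rik, ENSMUSG00000021098, chromosome 12 at 72881109-72940774, minus strand) encodes a central element protein of the synaptonemal complex. In cerebellum it had 0.981, 0.506 and 1.21 CPM in Wiz+/+ and 0.247, 0.272 and 0.259 CPM in Wiz MommeD30/+ mice, from 15 to 37 and 7 to 8 reads. The groups did not overlap, a pattern that was not counted over all genes. It fell by 1.78 on the log2 scale (SE 0.352, adjusted p = 0.00805, edgeR), a fold change of 0.291. It passed the filter on low counts through the Wiz+/+ cerebellums alone, the group where it was high. The test is therefore not used as support for a fall. Without that filter the adjusted p was 6.5e-05 (edgeR), in a fit that called 211 genes in all in place of 133. That value comes from the same libraries, for a gene named because it was called, so it is not used as support either. DESeq2 gave Six6os1 no adjusted p, and without the third Wiz+/+ cerebellum the fall was 1.51 with an adjusted p of 0.067.

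In E13.5 brain Six6os1 had lower levels in the Wiz MommeD30/+ libraries. Males had 2.79, 2.01 and 3.4 CPM in Wiz+/+ and 1.29, 1.51 and 1.52 CPM in Wiz MommeD30/+ brains, and females had 2.65 and 3.2 against 1.82 and 0.688 CPM. The genotypes were apart in both sexes, again without a count over all genes. The log2 fold change over both sexes was -1.08 (SE 0.2, adjusted p = 0.0293, edgeR), while it did not pass in males alone (-0.98, adjusted p = 0.0588) or females alone (-1.23, adjusted p = 0.773). The call over both sexes was lost without any one of 5 libraries, the first or the third male Wiz+/+ brain, the first or the second male Wiz MommeD30/+ brain or the second female Wiz+/+ brain, with adjusted p from 0.0625 to 0.1. Exons of Six6 on the other strand share 192 of its 5981 exon bases. A summed level of 6 blood markers was 145 to 228 CPM in Wiz+/+ and 266 to 481 CPM in Wiz MommeD30/+ cerebellums, and the part of this in the cerebellar result was not tested.

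Iho1 (Ccdc36, ENSMUSG00000047220, chromosome 9 at 108403611-108428484, minus strand) encodes a HORMAD1 partner needed for meiotic DNA breaks. In males it had 2.04, 2.69 and 2.24 CPM in Wiz+/+ and 1.24, 1.32 and 1.4 CPM in Wiz MommeD30/+ brains, and in females 2.44 and 2.16 against 1.34 and 1.119 CPM. No Wiz MommeD30/+ brain reached the lowest Wiz+/+ brain, and the share of all genes with such a gap was not counted. Over both sexes it fell by 0.84 on the log2 scale (SE 0.111, adjusted p = 0.00203, edgeR), and the call held without any single library. In males alone (-0.77, adjusted p = 0.107) and females alone (-0.91, adjusted p = 0.558) it was not called. In cerebellum it had at most 4 reads in a library, and its mean in the Wiz+/+ group was 0.033 CPM there and 2.32 ± 0.33 CPM in male E13.5 brain.

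The other 3 tested genes of that group were not called in any comparison of genotypes. Sycp2, a lateral element component, had log2 fold changes of -0.44 in males (adjusted p = 0.575, edgeR), -0.12 in females and -0.05 in cerebellum. Syce2, a central element component, had -0.26, 0.10 and 0.03. Rec8, the meiotic kleisin, had -0.17, -0.32 and 0.31.

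**Figure D4:**
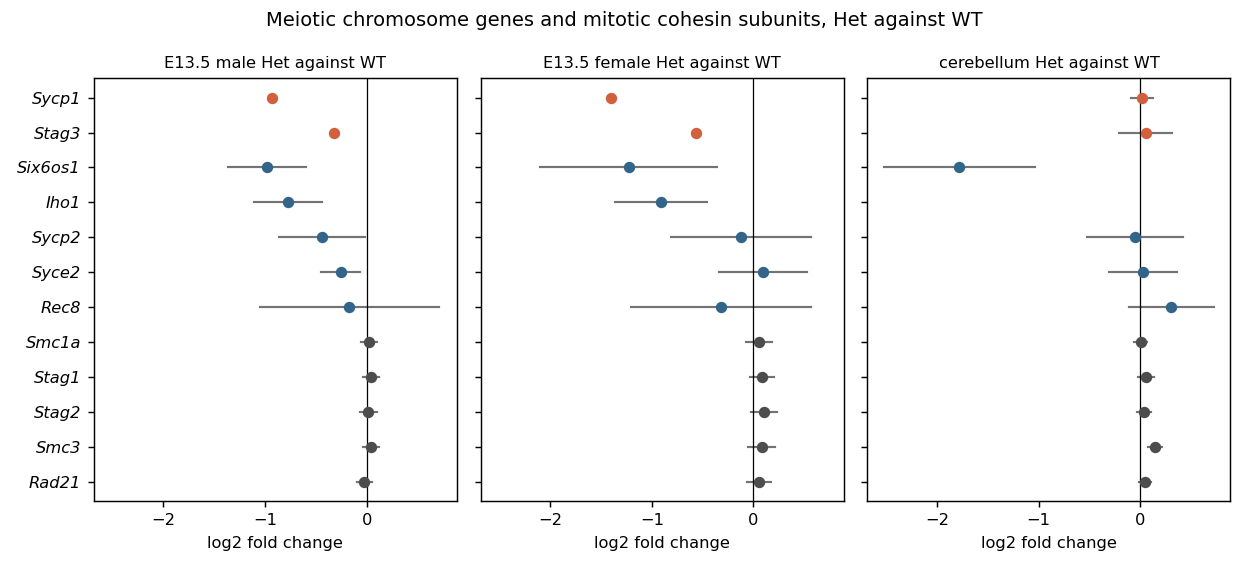
Log2 fold change, Het (Wiz MommeD30/+) against WT (Wiz+/+), of Sycp1 and Stag3 (orange), other synaptonemal complex and axis genes (blue) and mitotic cohesin genes (grey), with 95% intervals where a test was made. Points of Sycp1 and Stag3 in E13.5 brain carry no interval because that contrast chose the genes. Iho1 was not tested in cerebellum, and there Six6os1, at -1.78, is the point farthest from 0.

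Markers of germ cells themselves had low levels, and their sum did not separate the genotypes in E13.5 brain. The summed level of 6 germ cell markers (Ddx4, Dppa3, Nanos3, Dnd1, Pou5f1 and Dazl) was 3.61 to 4.22 CPM in Wiz+/+ and 4.12 to 4.48 CPM in Wiz MommeD30/+ males, and 4.84 to 5.07 against 4.54 to 4.91 CPM in females. In cerebellum it was 3.39 to 3.66 and 3.38 to 3.69 CPM. Most of it came from Dnd1 and Nanos3. Ddx4 had 13 to 39 reads per E13.5 brain and 8 to 15 per cerebellum, and met the rule for transcribed in each E13.5 group. Dppa3 and Pou5f1 had at most 1 and 3 reads in any library. The markers of the list thus differed, and whether germ cells were present was not tested.

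The genes whose level followed that of Sycp1 most closely over the 10 E13.5 brains, among 15341 genes with at least 10 reads in each, were outside the germline lists. They were Gm6483 (Pearson's r of log2 CPM 0.974), 6820431F20Rik (0.972), Gm26804 (0.97) and Gm21811 (0.967), annotated on chromosome 8, and ENSMUSG00000094614 (0.96), which has no symbol in the annotation. Stag3 ranked 15 (0.931) and Wiz 28 (0.881). The brains fall into 2 sets by genotype on Sycp1 itself, and the values are given as a description without a test.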

How the data were processed

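Polyadenylated RNA of 16 samples was sequenced as single-end reads. The authors mapped them to mm10 with TopHat2 2.0.11 and counted them on exons with HTSeq 0.6.1, and they deposited raw read counts per Ensembl gene without normalization. Neither the counting mode nor the strand setting is given in the sources used here. The 3 ChIP-seq samples were not analysed here. Symbols and positions came from GENCODE M21 (GRCm38), in which 40254 of 41388 identifiers were found.

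CPM and RPKM were scaled by total counts, and RPKM also by merged exon length. The samples of a comparison entered its fit alone, in edgeR 4.0.16 under R 4.3.3 (TMM, filterByExpr with a minimum count of 10, quasi-likelihood test, Benjamini-Hochberg adjustment over all genes tested), and called genes had a fold change below 0.7 or above 1.3 with an adjusted p no higher than 0.05. Standard errors were derived from the fold change and the F statistic. The alternatives were DESeq2 1.42.0, its size factors in edgeR, no filter, no fold limits, the replicate block, leaving out each library and 1 fit of both sexes. The further alternatives of that last fit, and of Six6os1 and Iho1, were added after seeing the data. The fits were tested on simulated counts.

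Members, lists and tests were chosen with earlier results of these data known. Named genes were all members, other germline genes called between genotypes, the 5 highest per tissue, the mitotic cohesin genes, Wiz and the 5 genes most like Sycp1. No library was a duplicate: replicate counts differed by more than sampling noise (chi-square over its degrees of freedom, 2.05 to 10.5). That replicates are separate animals rests on the study's description of them as biological replicates. Intervals of reads cover counting error only.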

Additional observations from a re-analysis of the deposited data

Results flagged for a closer look

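The Het against WT difference of Dazl ran in opposite directions in the sexes of E13.5 brain, with every Wiz MommeD30/+ male above every Wiz+/+ male (0.244 to 0.41 against 0.0873 to 0.218 CPM) and every Wiz MommeD30/+ female below every Wiz+/+ female (0.237 to 0.241 against 0.316 to 0.341 CPM). The difference between the 2 genotype responses was -1.47 on the log2 scale (female minus male), and no test of it is given, since Dazl was among the genes chosen on that contrast. The libraries held 2 to 15 reads of the gene. How many of all genes were apart in this way was not counted, so the pattern is not read as a response that differs with sex.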

How the results depend on the processing

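The replicate numbers did not pair the samples: same-numbered libraries of the 2 genotypes had mean residual correlations of -0.098 in males, -0.064 in females and -0.047 in cerebellum. With the replicate block, 3 genes in all were called in females in place of 19, 1 other germline gene over both sexes in place of 2 (Six6os1 was lost), and the count of called members in cerebellum stayed at 0. The log2 fold change of Sycp1 in cerebellum kept its side of the threshold under all alternatives.

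Of the other germline genes in males, 1 was called with DESeq2, 2 without the filter and 2 with both sexes in 1 fit, against 0. In females 2 were called with both sexes in 1 fit. In cerebellum 0 were called with DESeq2. Leaving out a library gave 0 to 1 in males, 0 to 1 in cerebellum and 1 to 2 over both sexes, where the call lost was that of Six6os1.

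Over all genes, males gave 175 calls without the filter, 61 with both sexes in 1 fit and 20 to 117 on leaving out a library, against 31. Females gave 32 with DESeq2, 61 with both sexes in 1 fit and 0 to 261 on leaving out a library, where the lone library left in a group is assumed to vary like the other group. Cerebellum gave 79 with DESeq2, 211 without the filter, 839 without fold limits and 70 to 153 on leaving out a library, against 133. The fit of both sexes gave 101 without the filter, against 61. The sex difference gave 141 with DESeq2, 1974 without fold limits and 156 to 318 on leaving out a library, against 258. The sex by genotype term gave 1 with DESeq2, 1 without the filter and 0 to 13 on leaving out a library. For Dazl the fit of both sexes gave a log2 fold change of 0.28, against -0.46 in females alone. The causes were not tested. Genes with few reads, 6 of the 8 members among them, are limited by depth.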
